A study of Mus musculus with 24 samples.

Results

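Transcripts of 10 genes of the WNT pathway were followed in MIN6 cells, an insulin-secreting line derived from a mouse insulinoma, after verapamil (50 µM; 24 h) and in untreated cells (control). The genes are the ligands Wnt4 and Wnt5a, the Frizzled receptors Fzd3 and Fzd6, the co-receptors Lrp5 and Lrp6, the effectors Ctnnb1 (β-catenin) and Tcf7l2, and the target genes Axin2 and Myc. They were picked by name, with earlier results of these data known, and all 10 had a row among the 12310 genes of the count table. Both groups were labelled WT, and both were kept at 5.6 mM glucose. The groups held 12 verapamil libraries and 12 control libraries, in 4 experiment sets of 3 libraries per group. Sets were assigned by the leading digit of each description label, a reading without a written source. Columns C11, C12, V11 and V12 have names that suit several samples, so they count as unnumbered replicates of their group and take the places left in set 4. All libraries came from a single cell line, and whether the 3 replicates of a set came from separate cultures is not settled by the sources, so p-values measure the spread between libraries, which may be partly technical. The paper and the labels also name different library kits and RNA inputs.

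WNT proteins are secreted, lipid-modified ligands that bind Frizzled receptors at the cell surface. In the canonical branch a Frizzled receptor pairs with LRP5 or LRP6, the complex that marks β-catenin for degradation is held in check, and β-catenin enters the nucleus, where it works with TCF/LEF factors such as TCF7L2 to switch on genes that include Axin2 and Myc. Other branches run through planar polarity proteins or calcium and do not need β-catenin. Pathway activity depends largely on proteins and their location, which transcript counts do not measure.

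Of the 10 genes, Wnt4, Ctnnb1 and Myc rose with verapamil, and Wnt5a, Fzd3, Fzd6, Lrp5, Lrp6 and Tcf7l2 fell, whereas Axin2 did not pass the test (edgeR's quasi-likelihood test, Benjamini-Hochberg adjusted p under 0.05). Levels are given in CPM, the reads of a gene relative to the library's total as scaled by edgeR's TMM factors, and log2 fold changes are verapamil over control. All 10 genes passed the filter on low counts. Calls were frequent in these libraries, since 62.8% of the 12306 genes tested passed, 31.2% higher and 31.6% lower. In this fit the 3 higher of 10 genes were therefore close to the background share, and the 6 lower genes were above it. As the genes were chosen with earlier results of these data known, this comparison is a description and not a test. In Wnt4, Ctnnb1 and Myc every verapamil library lay above every control library, which held for 4.95% of all genes tested. Fzd6 was the single gene of the 10 with every verapamil library below every control library, as were 5.18% of all genes. In bulk RNA, fewer cells of a type and less RNA per cell cannot be told apart.

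**Figure D1:**
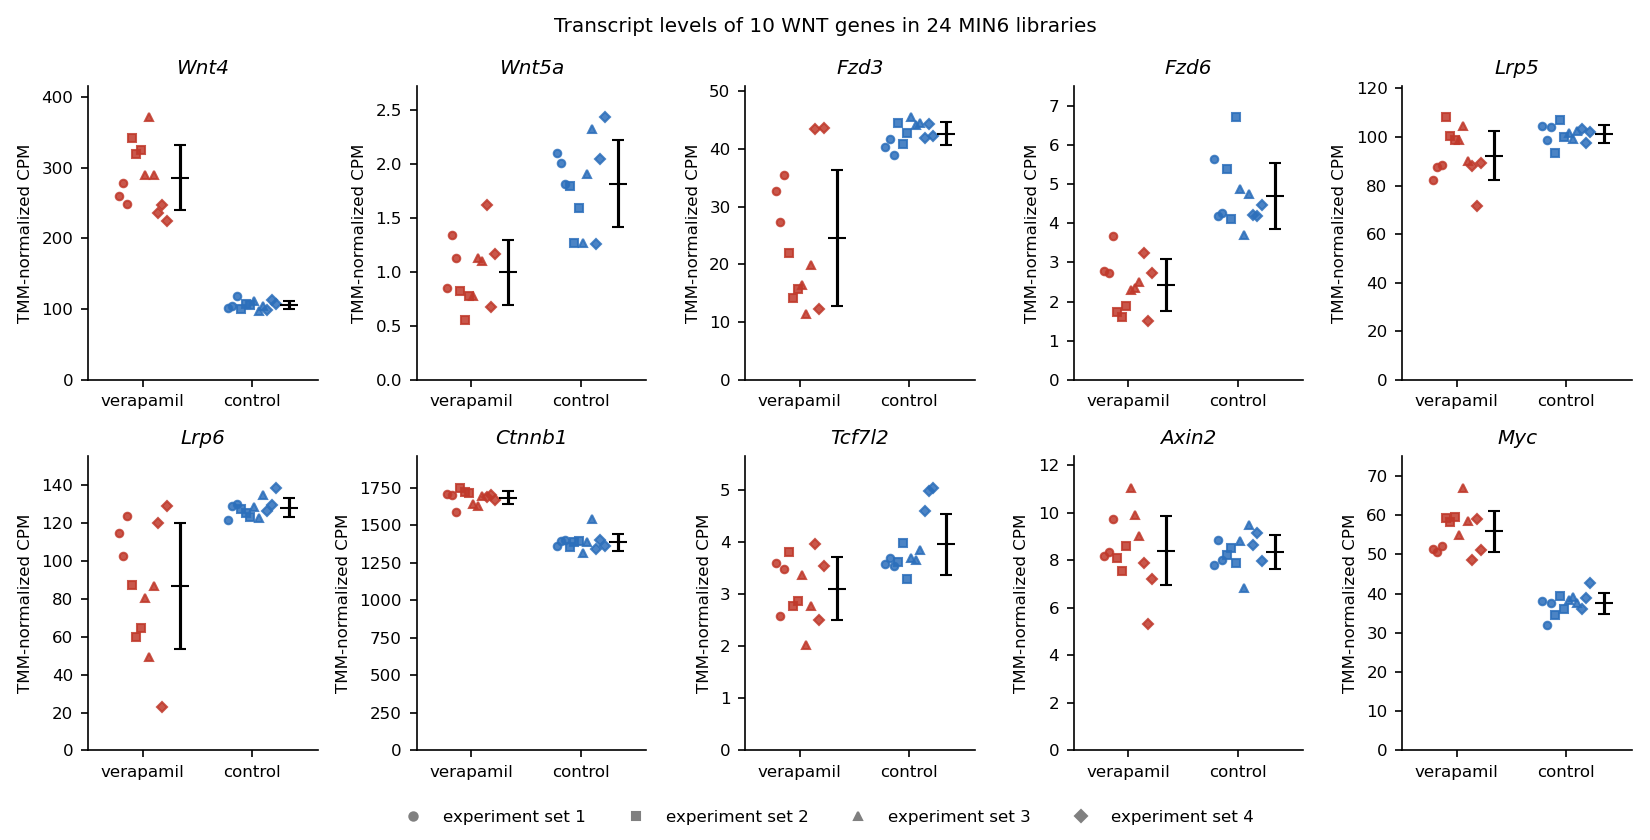
TMM-normalized CPM of each of the 10 genes in every library, verapamil at the left and control at the right of each panel, with marker shapes for the 4 experiment sets and bars for the mean ± SD of 12 libraries. Verapamil values of Wnt4, Ctnnb1 and Myc stand above all controls, while those of Fzd3 and Lrp6 run from far below the controls up into their range.

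Facts of the whole set of libraries bear on these values. Total counts were 21840159 to 44806556 in verapamil libraries (median 25584562) and 12590476 to 32360171 in control libraries (median 26642648). The deviation of each library from the control mean was set against the transcript length of the genes. Genes are not independent replicates, and across them Pearson's r with length ran from -0.536 to -0.0313 in verapamil libraries and from -0.13 to 0.118 in control libraries, and r with GC content ran from 0.0387 to 0.624 in verapamil libraries and from -0.179 to 0.163 in control libraries. Within verapamil, the library in column V11 had the lowest r with length, and 3 libraries, in columns V3, V10 and V12, were inside the control range. All 10 β-cell markers on the list were counted, of which 6 were lower, 1 higher (Mafa) and 3 did not pass, with a median log2 fold change of -0.451. Over all genes tested, 31.6% were lower and 31.2% higher. In fits with the library trends with GC content and length (explained below), 8 markers were lower with an offset and 7 with covariates. In each of these fits 1 marker was higher, and 23.6% and 14.1% of all genes were lower. Ins2 stood at 635 ± 116 CPM in verapamil and 1320 ± 160 CPM in control libraries, and Mafa at 1260 ± 119 CPM in verapamil and 697 ± 42.5 CPM in control libraries (SD, n = 12 each). Of the markers of other cell types, Gcg (α cells) stood at 260 ± 47.8 CPM in verapamil and 186 ± 9.21 CPM in control, and Kdr (endothelium) at 15.3 ± 2.93 CPM in verapamil and 1.86 ± 0.859 CPM in control. Sox9 (ducts) stood at 1.39 ± 0.47 CPM in verapamil and 2.56 ± 0.757 CPM in control, and Pdgfra (mesenchyme) at 0.497 ± 0.361 CPM in verapamil and 1.05 ± 0.286 CPM in control. The part of these shifts in the WNT results was not tested, and the other 25 of 29 listed markers of other cell types had no row among the genes analysed here.

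Wnt4, a ligand needed for kidney and female reproductive tract development in mice, had the largest change of the 10 genes and was the most abundant WNT ligand transcript measured. The gene lies on chromosome 4 (chr4:137277489-137299726, plus strand, 5 exons in its longest transcript; GENCODE M21 on GRCm38). In verapamil libraries it ranged from 224 to 371 CPM with a median of 284, and in control libraries from 98.1 to 118 CPM with a median of 105. The groups did not come near each other, and the verapamil values were the more scattered. The mean was 286 ± 45.7 CPM with verapamil and 106 ± 6 CPM in control (SD, n = 12 each), a 2.7-fold increase (log2 fold change 1.43, SE 0.07, adjusted p = 1.7e-14 by edgeR). The call held within each of the 4 sets. Other fits took in the library trends with GC content and length, either as an offset (a smooth correction of each library's counts) or as covariates (each library's slopes as terms of the model). Wnt4 rose by 1.29 on the log2 scale under the offset and by 1.19 with covariates.

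Because canonical targets are bound through TCF/LEF letters, RefSeq windows from 250 bases before to 50 after the gene starts were searched for them on both strands. Windows were found for Wnt4, Ctnnb1, Tcf7l2 and Axin2, while Wnt5a, Fzd3, Fzd6, Lrp5, Lrp6 and Myc were not matched. No window of these genes held the TCF/LEF letters CTTTGAT or CTTTGAA, which occur in 8.65% of the 32851 windows of the table, nor the cyclic AMP element TGACGTCA (1.79%) or the E-box CACGTG (7.15%). The GC box GGGCGG was in 35.66% of all windows. Wnt4 held 8 copies, Axin2 held 2, the windows of Ctnnb1 held 3 each, and those of Tcf7l2 held 6 and 0, with overlapping copies counted separately. The 2 windows of Ctnnb1 overlap, so that some of its copies were counted in both. Shown are the stretches before the first annotated exon base of the ligand and the effector that rose and of the target that did not pass the test, 5′ to 3′ on the plus strand (RefSeq, GRCm38.p6), with GGGCGG and its reverse complement CCGCCC in capitals. They lie at chr4:137277385-137277488 (Wnt4), chr9:120933150-120933399 (Ctnnb1, at a start inside the gene as GENCODE draws it) and chr11:108920099-108920348 (Axin2).
Wnt4: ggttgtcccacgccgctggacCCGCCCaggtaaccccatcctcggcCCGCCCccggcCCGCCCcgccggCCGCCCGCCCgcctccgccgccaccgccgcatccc
Ctnnb1: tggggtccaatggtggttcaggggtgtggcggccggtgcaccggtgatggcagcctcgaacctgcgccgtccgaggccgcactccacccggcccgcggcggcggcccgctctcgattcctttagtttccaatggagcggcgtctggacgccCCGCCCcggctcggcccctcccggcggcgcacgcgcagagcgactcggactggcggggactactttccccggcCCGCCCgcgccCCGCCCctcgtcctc
Axin2: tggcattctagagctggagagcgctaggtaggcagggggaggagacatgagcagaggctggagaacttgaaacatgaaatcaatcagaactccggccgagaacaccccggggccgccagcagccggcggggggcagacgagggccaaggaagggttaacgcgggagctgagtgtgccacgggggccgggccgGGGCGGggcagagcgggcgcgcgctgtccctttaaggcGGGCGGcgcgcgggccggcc
A match of letters is a description and not a bound site, and the absence of letters from these windows tells nothing of sites elsewhere.

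Wnt5a, the classical non-canonical ligand, moved the other way at a far lower level. It is a gene of chromosome 14 (chr14:28504750-28527448, plus strand). Verapamil libraries gave 0.554 to 1.62 CPM (median 0.974) and control libraries 1.26 to 2.43 CPM (median 1.86), from 12 to 66 reads per library. The ranges overlapped, with 10 of 12 verapamil libraries below all controls. The log2 fold change was -0.85 (SE 0.16, adjusted p = 7.1e-05 by edgeR), that is 55.3% of the control level. At these counts a single library says little, and the call rests on the groups.

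Per kilobase of exon, Wnt4 stood at 68.2 ± 10.9 CPM with verapamil and 25.2 ± 1.43 CPM in control (SD, n = 12 each). It made up 95.9% to 97.2% of the summed per-kilobase signal of the 6 measured ligands in verapamil libraries and 90% to 92.7% in control libraries. Next came Wnt11, a non-canonical ligand, with 1.65 ± 0.378 CPM per kilobase in verapamil and 1.33 ± 0.219 in control. Wnt11 rose by a log2 fold change of 0.31 (SE 0.12, adjusted p = 0.024 by edgeR), but not once counts were summed per set (adjusted p = 0.14). It had 0.15 under the offset (adjusted p = 0.18) and turned to -0.14 with covariates (adjusted p = 0.38). Wnt3 and Wnt9a did not pass, with log2 fold changes of -0.05 and 0.05. Of 19 ligand genes listed, 6 were measured, 2 of them higher, 1 lower and 3 not passing. The shares were 33.3% higher and 16.7% lower, with 31.2% and 31.6% over all genes.

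Both Frizzled receptors fell, with different spreads. Fzd6, a receptor known from planar polarity and hair patterning in mice, is on chromosome 15 (chr15:39006034-39038188, plus strand). It ranged from 1.51 to 3.67 CPM in verapamil libraries (median 2.42) and from 3.70 to 6.70 CPM in control libraries (median 4.36), from 35 to 215 reads per library. The highest verapamil library stopped just short of the lowest control. Its log2 fold change was -0.95 (SE 0.13, adjusted p = 2.2e-06 by edgeR), from means of 2.42 ± 0.659 CPM with verapamil and 4.70 ± 0.841 CPM in control (SD, n = 12 each).

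Fzd3, a receptor needed for axon growth in mice, has a long, AT-rich transcript (chr14:65192449-65262463, minus strand, 12804 bases of merged exon, 43.5% GC). Values ran from 11.4 to 43.7 CPM in verapamil libraries (median 20.9) and from 39.0 to 45.5 CPM in control libraries (median 42.5). Controls were tightly packed, and 10 of 12 verapamil libraries lay below all of them, while the other two, in columns V10 and V12, were inside the control range with 43.5 and 43.7 CPM. The coefficient of variation was 47.8% in verapamil and 4.65% in control. The log2 fold change was -0.79 (SE 0.19, adjusted p = 0.00092 by edgeR). The call was lost when the library trends with GC content and length entered the fit, at -0.13 with these trends as an offset (adjusted p = 0.059) and -0.02 with the trends as covariates (adjusted p = 0.79).

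Neither of these receptors was the main Frizzled transcript. Per kilobase, Fzd2 was highest with 12.3 ± 1.3 CPM in verapamil and 11.8 ± 0.756 in control (SD, n = 12 each), and Fzd7 followed with 4.13 ± 0.547 CPM in verapamil and 4.60 ± 0.454 CPM in control. Neither Fzd2 (log2 fold change 0.06, adjusted p = 0.31) nor Fzd7 (-0.16, adjusted p = 0.071) passed edgeR's test, although both were called lower under the offset (-0.11 and -0.25). Fzd9 and Fzd8 fell by 0.60 and 0.39 on the log2 scale, and both calls held with the GC and length slopes as covariates (-0.63 and -0.35). Fzd5 fell by 0.29 and had -0.29 under the offset, also called, but -0.06 with covariates, which did not pass (adjusted p = 0.61). Fzd4 rose by 0.22 with an adjusted p of 0.0496 by edgeR, was not called in summed counts (adjusted p = 0.098) and had 0.56 with covariates. Of the 9 Frizzled genes measured, 5 were lower (55.6%), 1 higher (11.1%) and 3 did not pass. Under the offset 6 were lower and 1 higher, and with covariates 3 lower and 1 higher. Over all genes, 31.6% were lower and 31.2% higher, with 23.6% and 33.7% under the offset and 14.1% and 20.9% with covariates.

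The co-receptors Lrp5 and Lrp6 are close relatives that both carry the canonical signal. Lrp6 (chr6:134446476-134566965, minus strand, 13672 bases of merged exon) ranged from 23.1 to 129 CPM with verapamil (median 87.1) and from 122 to 139 CPM in control (median 128). The controls were nearly level, and 10 of 12 verapamil libraries were below all of them. The lowest value, 23.1 CPM, came from column V11, the library with the strongest length trend, whereas V3, V10 and V12 had 124, 120 and 129 CPM.

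The log2 fold change of Lrp6 was -0.56 (SE 0.18, adjusted p = 0.0081 by edgeR) and was -0.47 without column V11 (adjusted p = 0.0024). It was 0.00 with the GC and length trends as an offset (adjusted p = 0.98) and 0.11 with the slopes as covariates (adjusted p = 0.27). The call was also lost without set 2 (adjusted p = 0.074) or set 3 (adjusted p = 0.069).

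Lrp5 (chr19:3584828-3686564, minus strand) varied less between verapamil libraries, with a coefficient of variation of 11.1%, against 38.1% for Lrp6. Verapamil libraries held 71.5 to 108 CPM (median 89.7) and control libraries 93.5 to 107 CPM (median 102). The ranges overlapped, with 7 verapamil libraries below all controls and 1 above. The log2 fold change was -0.13 (SE 0.05, adjusted p = 0.03 by edgeR), a small fall that was not called under upper quartile scaling (-0.07, adjusted p = 0.33), without verapamil replicate 1 (adjusted p = 0.051), without set 1 (adjusted p = 0.23) or set 4 (adjusted p = 0.15), without the 4 columns of uncertain name (adjusted p = 0.075) or in counts summed per set (adjusted p = 0.14). With the GC and length trends as an offset it was -0.05 and not called (adjusted p = 0.36), and with the slopes as covariates it was -0.21 and called (adjusted p = 4.4e-05).

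**Figure D2:**
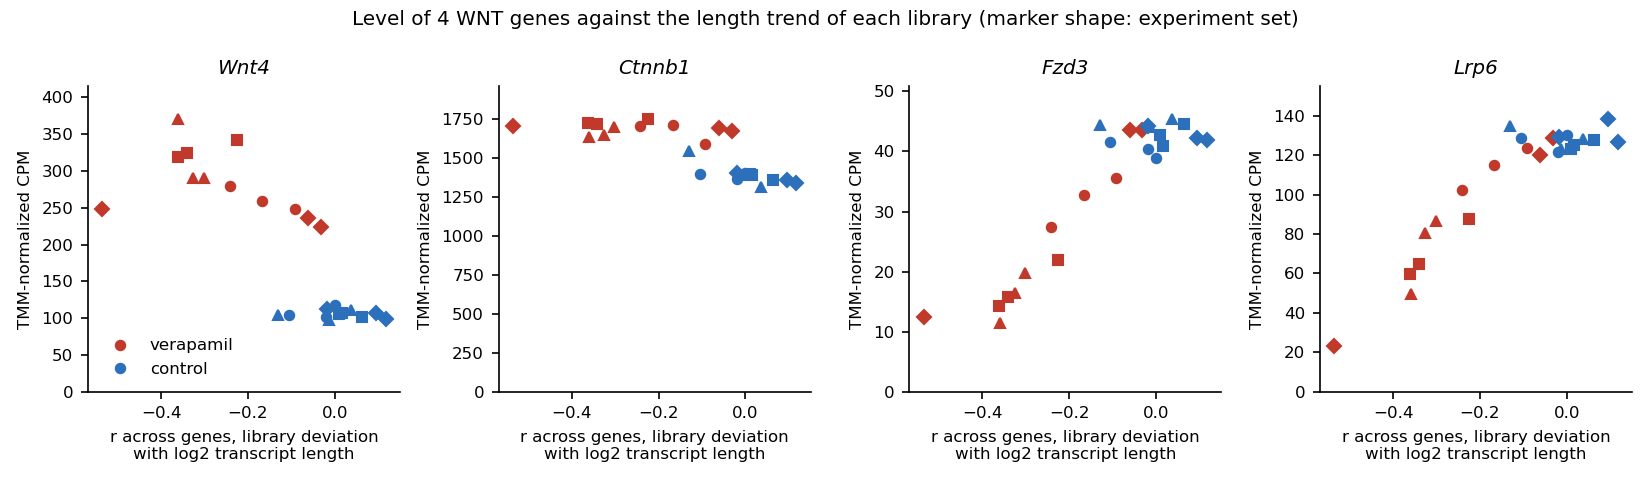
TMM-normalized CPM of Wnt4, Ctnnb1, Fzd3 and Lrp6 (y axis) in each of 24 libraries against the library's r across genes between its deviation from the control mean and log2 transcript length (x axis), red for verapamil and blue for control, with marker shapes for the experiment sets. Fzd3 and Lrp6 are lower where r is more negative and reach the control range in some of the verapamil libraries with r near 0. Wnt4 and Ctnnb1 lie above all controls in every verapamil library. The part of the length trend in these levels was not tested.

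The verapamil libraries V3, V10 and V12, singled out after the values were seen because their length trend was within the control range, had these levels. Wnt4 was 248, 236 and 224 CPM, above the highest control of 118 CPM and at the low end of its verapamil range of 224 to 371 CPM. Ctnnb1 was 1591, 1688 and 1671 CPM, against at most 1541 CPM in control, and Myc was 52.2, 48.6 and 51.1 CPM, against at most 42.7 CPM in control. The lowest verapamil values of Wnt4, Ctnnb1 and Myc were thus among these libraries. Lrp6 lay within its control range in V3 and V12, and Fzd3 within its range in V10 and V12. Fzd6 was 3.67, 3.23 and 2.73 CPM, below all controls and at the upper end of its verapamil range in V3 and V10. Columns V10 and V12 are both in set 4, V12 has an uncertain name, and the part of the length trend in these levels was not tested.

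Ctnnb1, which encodes β-catenin, an adherens junction component and the transducer of the canonical signal, is located on chromosome 9 (chr9:120929216-120960507, plus strand). It was the most abundant of the 10 transcripts per kilobase. Its values were 1591 to 1750 CPM with verapamil (median 1699) and 1315 to 1541 CPM in control (median 1390). The groups were separated by a narrow gap, and both were tight, with coefficients of variation of 2.64% in verapamil and 4.02% in control. The increase was 1.21-fold (log2 fold change 0.28, SE 0.03, adjusted p = 1.4e-08 by edgeR) and was 0.29 with the GC and length trends as an offset and 0.27 with the slopes as covariates. Ulk4 overlaps Ctnnb1 on the opposite strand, and as no source states how strand was counted, the Ctnnb1 count may hold reads of Ulk4. Wnt5a, Fzd3, Fzd6 and Axin2 also overlap annotated genes on the opposite strand.

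Tcf7l2, the TCF factor whose human gene is linked to type 2 diabetes risk, was weakly expressed (chr19:55741820-55933654, plus strand). Verapamil libraries gave 2.02 to 3.97 CPM (median 3.13) and control libraries 3.30 to 5.05 CPM (median 3.70), from 45 to 158 reads. The groups overlapped, with 6 of 12 verapamil libraries below all controls and 6 inside the control range. The log2 fold change was -0.35 (SE 0.10, adjusted p = 0.006 by edgeR). It did not pass in counts summed per set (adjusted p = 0.059) and was -0.19 and -0.07 with the GC and length trends as an offset (adjusted p = 0.082) or as covariates (adjusted p = 0.7).

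Axin2, a negative regulator of β-catenin that is itself a widely used readout of canonical signalling, did not pass the test. The gene is on chromosome 11 (chr11:108920349-108950783, plus strand). It ranged from 5.30 to 11.1 CPM in verapamil libraries (median 8.27) and from 6.83 to 9.48 CPM in control libraries (median 8.38). The groups shared most of their range, with 3 verapamil libraries above and 1 below all controls. The log2 fold change was 0.01, with a 95% interval of -0.16 to 0.19 (adjusted p = 0.9 by edgeR). A change within these bounds, in either direction, was not told apart from 0 by this test.

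Myc, a transcription factor that drives growth and a canonical target in intestine, is encoded on chromosome 15 (chr15:61985391-61990374, plus strand). It had 48.6 to 66.9 CPM in verapamil libraries (median 56.5) and 32.1 to 42.7 CPM in control libraries (median 37.9). All verapamil values were higher, with a clear gap between the groups. The increase was 1.49-fold (log2 fold change 0.57, SE 0.05, adjusted p = 3.2e-09 by edgeR), and 0.36 and 0.41 on the log2 scale remained with the trends as an offset or as covariates, both called.

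**Figure D3:**
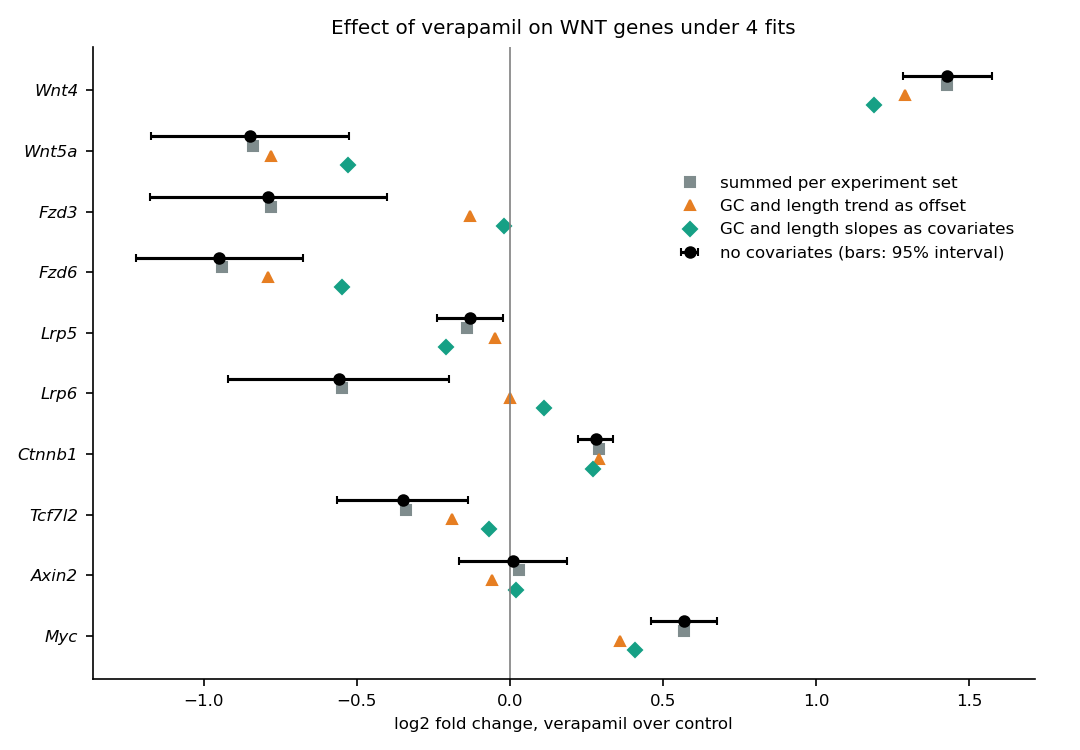
Log2 fold change of verapamil over control (x axis) for the 10 genes under 4 fits, with the 95% interval drawn for the fit without covariates. Wnt4, Ctnnb1 and Myc stay to the right of 0 and Wnt5a and Fzd6 to the left in all 4, whereas Fzd3, Lrp6 and Tcf7l2 move towards or past 0 once GC content and length enter.

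Across these fits the higher genes were the same 3, while the lower ones numbered 6 without covariates, 4 in summed counts, 2 under the offset and 3 with covariates. Over all genes tested, the lower share was 31.6% without covariates, 17.3% in summed counts, 23.6% under the offset and 14.1% with covariates. The higher share was 31.2%, 24.4%, 33.7% and 20.9% in these 4 fits. Wnt5a remained lower under the offset (-0.78, adjusted p = 9.9e-05 by edgeR) and with covariates (-0.53, adjusted p = 0.049), as did Fzd6 (-0.79 and -0.55). The covariates inflated the variance of the treatment effect 1.99-fold, and where the trends and the treatment go together they cannot be told apart.

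Within the experiment sets, the changes of Wnt4 were 1.27, 1.64, 1.61 and 1.15 on the log2 scale in sets 1 to 4, each called by edgeR. The plot of effects by set shows the same direction in all 4 sets for Wnt4, Wnt5a, Fzd3, Fzd6, Lrp6, Ctnnb1, Tcf7l2 and Myc. Myc had 0.51, 0.67, 0.66 and 0.44. Ctnnb1 was the most even, with 0.26, 0.31, 0.23 and 0.30. Fzd3 was the least even, with -0.35 and -0.37 in sets 1 and 4 and -1.33 and -1.48 in sets 2 and 3. Lrp5 was at -0.26, 0.02, -0.04 and -0.29 and Axin2 at 0.09, -0.03, 0.27 and -0.34 in sets 1 to 4, so that both changed sign between sets.

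Called in set 1 were 7 of the 10 genes, in set 2 also 7, in set 3 they were 6, and in set 4 there was 1, Wnt4. Of all genes tested, 27.6%, 57.2%, 43.3% and 0.406% were called in these sets. Set 4 holds column V11 beside V10 and V12, and its verapamil libraries lay far apart for Lrp6 (23.1 CPM in V11, 120 and 129 CPM in the others). The size of the verapamil effect differed between sets for Wnt4 (interaction of set and treatment, adjusted p = 0.029 by edgeR), as for 9.67% of all genes. For the other 9 genes the adjusted p ran from 0.1 to 0.91. Without the 4 columns of uncertain name, Fzd3 (adjusted p = 0.0086) and Fzd6 (adjusted p = 0.048) passed and Wnt4 did not (adjusted p = 0.083), when 19% of all genes passed.

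**Figure D4:**
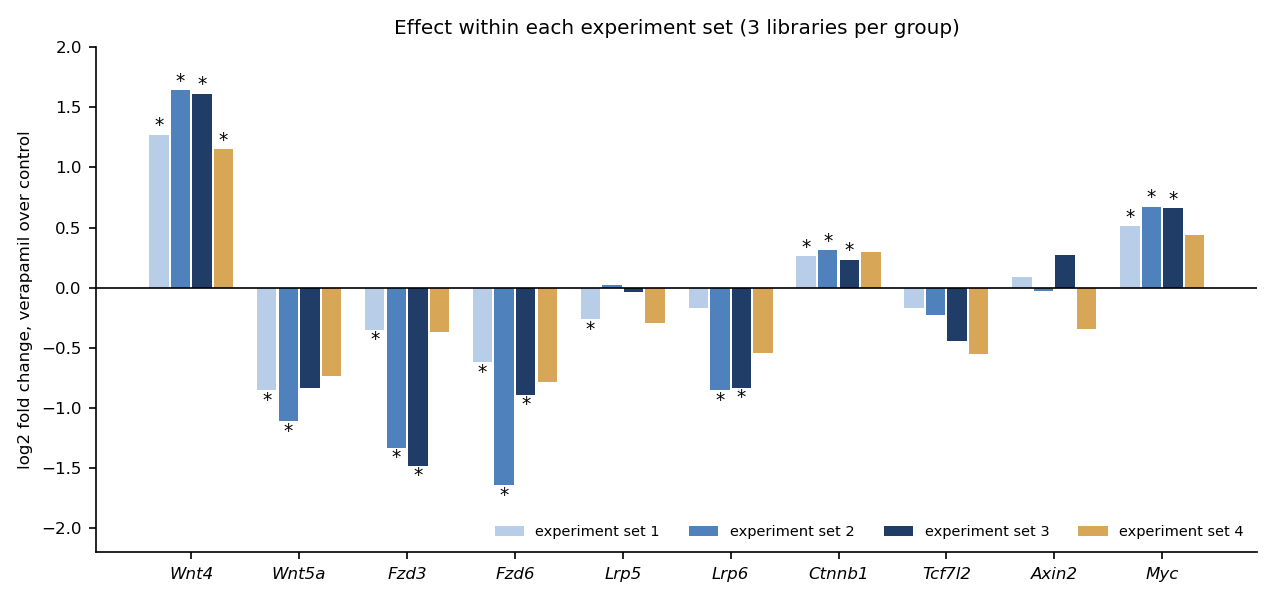
Log2 fold change of verapamil over control (y axis) for each gene within experiment sets 1 to 4, with 3 libraries per group in each bar's fit and asterisks for an adjusted p under 0.05 (edgeR). Wnt4 carries an asterisk in every set, and Fzd3 is deepest in sets 2 and 3, at -1.33 and -1.48.

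With the counts of a set summed, 4 sums stood against 4. An exact permutation test on log2 CPM (two-sided) gave p = 0.0286, the smallest this design allows, for all of the 10 genes but Lrp5 (p = 0.114) and Axin2 (p = 0.971). Of all genes tested, 47.3% reached that p, 24.3% higher and 23.1% lower. By edgeR on these sums, 7 of 10 genes passed against 41.7% of all genes, with adjusted p = 6e-05 for Wnt4 and 0.00066 for Myc. Lrp5, Tcf7l2 and Axin2 were the 3 that did not pass.

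In order of level, the mean CPM per kilobase of exon in verapamil libraries was 325 for Ctnnb1, 68.2 for Wnt4, 20.6 for Myc, 9.48 for Lrp5, 6.35 for Lrp6, 1.92 for Fzd3, 1.53 for Axin2, 0.502 for Fzd6, 0.355 for Tcf7l2 and 0.127 for Wnt5a. The order of the genes was the same in control libraries, where the mean CPM per kilobase was 267, 25.2, 13.8, 10.4, 9.37, 3.33, 1.52, 0.976, 0.452 and 0.232. Neighbours whose ranges overlapped were Lrp5 with Lrp6, Lrp6 with Fzd3, Fzd3 with Axin2 and Fzd6 with Tcf7l2 under verapamil, and in control Lrp5 with Lrp6 and Axin2 with Fzd6.

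Among protein-coding genes at 5 CPM or more, those most like the ligand, the receptor and the target of largest change were named by Pearson's r of log2 CPM over 24 libraries, which share the treatment and the library trends. Genes close to Wnt4 included Dhcr7, an enzyme of cholesterol synthesis (r = 0.991), and Creb3l1, a membrane-bound transcription factor (r = 0.989). Within the 12 control libraries alone, r was 0.418 for Dhcr7 and 0.428 for Creb3l1. Fzd6 was closest to Add3 (r = 0.934), Rbms1 (r = 0.928) and Clvs1 (r = 0.927). Myc was closest to Ftl1, the ferritin light chain (r = 0.969), and to Rell2 and Creb3l1 (r = 0.968 each). Between the 10 genes themselves, Lrp6 and Fzd3 had r = 0.86 over the 12 verapamil libraries and 0.13 over the 12 controls, and Wnt4 and Myc had 0.81 over the verapamil libraries and 0.29 over the controls.

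The rest of the pathway was counted from lists by role. Besides the 10 genes, 117 of 170 listed genes were measured, of which 25 were higher (21.4%, with 31.2% over all genes) and 50 lower (42.7%, with 31.6% over all genes). Their median log2 fold change was -0.14, where that of all genes tested was 0. Under the offset the counts were 43 higher and 33 lower, with a median of 0.05, and with covariates 27 and 21, with a median of -0.01. Lower genes did not outnumber higher ones in these 2 fits, but higher calls also led over all genes. The lower pathway share was 28.2% under the offset (23.6% over all genes) and 17.9% with covariates (14.1% over all genes). The higher share was 36.8% under the offset (33.7% over all genes) and 23.1% with covariates (20.9% over all genes). The lists were written with earlier results of these data known, so these shares are a description.

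**Figure D5:**
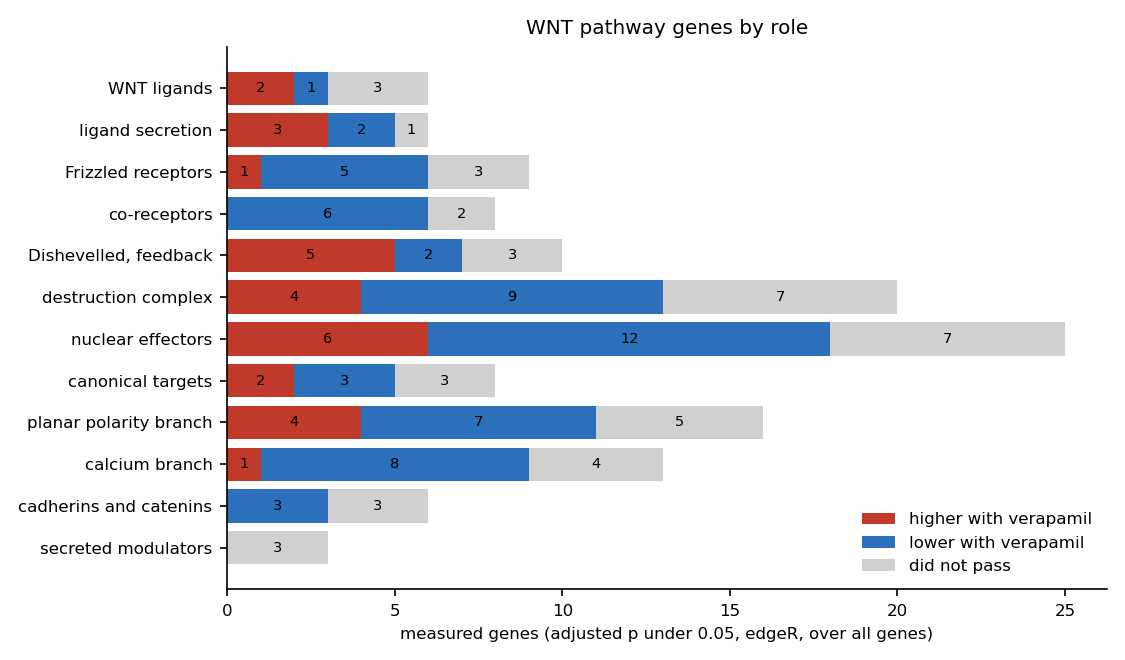
Number of measured genes (x axis) in each role of the WNT pathway, the 10 genes included, split into higher with verapamil, lower with verapamil and not passing an adjusted p of 0.05 in edgeR. Lower genes outnumber higher ones among Frizzled receptors (5 and 1), co-receptors (6 and 0) and the calcium branch (8 and 1). Higher ones lead among Dishevelled and feedback genes (5 and 2). With GC and length slopes as covariates the calcium branch had 4 and 4, and the Dishevelled and feedback genes had 2 lower and 1 higher. Over all genes tested, 31.2% were higher and 31.6% lower, and with covariates 20.9% and 14.1%. The counts by role were not tested against these shares.

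The counts by role below were not tested against the shares over all genes. These were 31.2% higher and 31.6% lower, with 33.7% and 23.6% under the offset and 20.9% and 14.1% with covariates. In ligand secretion, 3 of 6 measured genes rose and 2 fell (50% and 33.3%). Under the offset 4 were higher and 0 lower, and with covariates 3 and 0. Porcn, which attaches the lipid to WNT proteins, rose by 0.26 on the log2 scale (adjusted p = 0.0036 by edgeR), but had -0.01 with covariates. Wls, the carrier that brings WNT proteins to the surface, fell by 0.37 (adjusted p = 0.0019), with 556 ± 124 CPM in verapamil and 720 ± 37.6 CPM in control (SD, n = 12 each). It had 0.46 under the offset, in the other direction and called (adjusted p = 7.9e-05 by edgeR), and 0.00 with covariates. Vps29, a retromer subunit, rose by 0.44, and by 0.17 with covariates, and its groups did not overlap.

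Among the 8 co-receptors and alternative receptors measured, 6 fell (75%, with 31.6% over all genes) and 0 rose by edgeR's adjusted p. At an unadjusted p under 0.05, 1 was higher, and by DESeq2 0 were. Under the offset and with covariates, 3 were lower and 0 higher in each. Ror1, a WNT5A receptor kinase, had 7.89 ± 2.95 CPM in verapamil and 16.6 ± 1.32 CPM in control (SD, n = 12 each). All verapamil libraries were below all controls, and the log2 fold change was -1.07 (adjusted p = 4.9e-06 by edgeR) and -0.40 with covariates, still called. Lgr4, an R-spondin receptor, fell by 0.61 and had -0.26 under the offset, also called, but 0.08 with covariates, which did not pass. Of the 20 genes listed as secreted modulators, 3 were measured, and 0 passed edgeR's test without covariates, at an unadjusted p under 0.05 or by DESeq2. Calls appeared once GC content and length entered. The WNT-binding inhibitor Wif1 had a log2 fold change of 0.07, against 0.14 under the offset (adjusted p = 0.019) and 0.21 with covariates (adjusted p = 0.0021). The R-spondin gene Rspo4 had -0.16, against -0.38 (adjusted p = 0.00013) and -0.28 (adjusted p = 0.0059) in these fits, and Tpbg had -0.08, against -0.24 under the offset (adjusted p = 0.04) and -0.19 with covariates (adjusted p = 0.33).

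Among Dishevelled and feedback genes, 5 of 10 rose and 2 fell (50% and 20%, with 31.2% and 31.6% over all genes). Under the offset 4 were higher and 2 lower, and with covariates 1 and 2. Znrf3, a ligase that removes Frizzled receptors and is a canonical target, fell by 0.57 (adjusted p = 0.00019 by edgeR) with no overlap between groups, and by 0.16 with covariates. Apcdd1, a membrane inhibitor of the pathway, fell by 0.40, while Nkd2 and Dact2, which bind Dishevelled, rose by 0.51 and 0.50. With covariates these 3 did not pass, at -0.31 for Apcdd1, 0.33 for Nkd2 and 0.21 for Dact2 (adjusted p = 0.055, 0.18 and 0.37). Under the offset Nkd2 (0.40) and Dact2 (0.30) were called and Apcdd1 (-0.22) was not (adjusted p = 0.08 by edgeR). In the destruction complex, 4 of 20 rose and 9 fell (20% and 45%, with 31.2% and 31.6% over all genes). Under the offset 9 were higher and 1 lower, and with covariates 5 and 0. Apc, the scaffold, fell by 0.62 (adjusted p = 0.0074) and had 0.17 with covariates, in the other direction and called, and its relative Apc2 rose by 0.51 and by 0.45 with covariates.

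Nuclear effectors showed 6 of 25 higher and 12 lower (24% and 48%, with 31.2% and 31.6% over all genes). Under the offset 12 were higher and 5 lower, and with covariates 7 and 6. Ctbp2, a corepressor, fell by 0.73 (adjusted p = 2.9e-06 by edgeR) and by 0.33 with covariates. Sox9 fell by 0.87 at a low level and by 0.84 with covariates, and Cdc73, a subunit of the PAF1 complex, fell by 0.69 but had 0.42 under the offset, called, and 0.01 with covariates.

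Canonical targets moved in both directions, at shares near those of all genes. Of 8 measured, including Axin2 and Myc, 2 rose (25%, with 31.2% over all genes), 3 fell (37.5%, with 31.6%) and 3 did not pass. Under the offset and with covariates, 2 were higher and 2 lower in each. Ccnd1, the cyclin D1 gene, rose by 1.59 (SE 0.22, adjusted p = 2.2e-06 by edgeR) from low levels, with 2.34 ± 0.783 CPM in verapamil and 0.763 ± 0.316 CPM in control (SD, n = 12 each), and by 1.58 with covariates. Jun, an AP-1 factor, fell by 0.95 (SE 0.08, adjusted p = 1.1e-09), with 8.85 ± 1.23 CPM in verapamil and 17.1 ± 2.15 CPM in control without overlap, and by 1.05 with covariates. The other 2 that fell were Znrf3 and Apcdd1, and Id2 (0.07) was among those that did not pass. The targets Myc, Ccnd1 and Jun are also controlled by many other signals.

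In the planar polarity branch, 4 of 16 rose and 7 fell (25% and 43.8%, with 31.2% and 31.6% over all genes). Under the offset 7 were higher and 4 lower, and with covariates 5 and 1. Prickle1, a core polarity protein, rose by 0.59 (adjusted p = 3.5e-07 by edgeR) and by 0.65 with covariates. Rock1 and Rock2, kinases downstream of RhoA, fell by 1.25 and 1.29. Under the offset they had -0.28 and -0.50, both called (adjusted p = 0.0012 and 0.00012 by edgeR). With covariates they had -0.21 and -0.23, which did not pass (adjusted p = 0.079 and 0.051). In the calcium branch, 1 of 13 rose and 8 fell (7.69% and 61.5%, with 31.2% and 31.6% over all genes). Under the offset 4 were higher and 6 lower, and with covariates 4 and 4. Among those that fell were Plcb4 (-1.10) and Plcb1 (-0.96), phospholipases C that had -0.72 and -0.52 under the offset, both called. With covariates Plcb4 had -0.15, still called, and Plcb1 had -0.06, which did not pass (adjusted p = 0.51 by edgeR). Of the cadherins and catenins that share β-catenin with the pathway, 3 of 6 fell (50%, with 31.6% over all genes). By edgeR's adjusted p, at an unadjusted p under 0.05 or by DESeq2, 0 rose, while 1 was higher under the offset. Cdh2 (N-cadherin) had 47.8 ± 9.65 CPM in verapamil and 94.9 ± 5.02 CPM in control (SD, n = 12 each), without overlap, a log2 fold change of -0.99 (adjusted p = 1.3e-09 by edgeR) and -0.64 with covariates.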

How the data were processed

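The authors deposited raw read counts of genes in 24 libraries. Per the submitters' processing notes and the paper, reads were converted with bcl2fastq 2.20, trimmed with Trimmomatic 0.39, aligned with HISAT2 2.1.0 to GRCm38 (mm10) and assigned to genes by HTSeq 0.9.1, with a strand setting and gene annotation not given in the sources used here. The table also holds, as deposited by the authors, a mean log2 CPM and the outcome of their own comparison, namely the ratio of the groups, its log2, the p-value before and after adjustment, and a column headed log10 of the adjusted p-value whose values equal the log10 of the unadjusted p-value. No step used any of these.

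The counts of 24 libraries were compared with edgeR 4.0.16 in R 4.3.3, with filterByExpr (minimum count 10, minimum total 15), TMM normalization and the quasi-likelihood test without covariates. Benjamini-Hochberg adjustment ran over all 12306 genes tested at 0.05. The standard error of a log2 fold change was its absolute value over the root of F. CPM are TMM-normalized, and correlations used log2 CPM with 0.5 added to the counts. Depth ranged from 12590476 to 44806556 counts per library, so genes near 1 CPM carry the largest counting error. No 2 libraries of a group agreed within sampling noise (lowest chi-square over degrees of freedom 5.72). Alternatives were other scalings and filters, DESeq2 1.42.0, a term or block for set or replicate number, counts summed per set, single sets, left-out sets and libraries, and the library trends with GC content and length, as an offset (natural splines with 4 degrees of freedom) or with each library's slopes as covariates. Coordinates, exon lengths and GC contents came from GENCODE M21, matched by gene ID for 12310 genes. Figures were drawn with matplotlib 3.10.9 in Python 3.11.15, from tables read by pandas 2.3.3 (numpy 2.4.6).

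The genes, the pathway lists and the tests were chosen with earlier results of these data known. Beside the 10 genes, the text names from each list up to 4 called genes of at least 1 CPM on average, taken by the size of their change, up to 2 abundant genes that did not pass, and for the ligand, receptor and target of largest change the 3 protein-coding genes with the highest r. Of the genes this rule names, 2 are not reported here. Ulk4, Tpbg and the cell type markers stand outside this rule.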

Additional observations from a re-analysis of the deposited data

Results flagged for a closer look

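The effect of verapamil differed in size between the 4 experiment sets, by the interaction of set and treatment in edgeR with Benjamini-Hochberg adjustment, for Wnt4 (adjusted p = 0.029) and for 7 other pathway genes named by the rule. Such a difference was found for 9.67% of all genes tested.

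Wnt4 rose in all 4 sets, by 1.27, 1.64, 1.61 and 1.15 on the log2 scale in sets 1 to 4, each called. Of the other genes, those of the calcium branch were Plcb4 (adjusted p = 0.017), Plcb1 (adjusted p = 0.033) and Ppp3ca, a calcineurin subunit (adjusted p = 0.0083). Plcb4 had -0.47, -2.06, -2.05 and -0.61, Plcb1 had -0.45, -1.91, -1.66 and -0.45, and Ppp3ca had -0.28, -1.51, -1.28 and -0.41. Rock1 (adjusted p = 0.027) had -0.79, -2.31, -2.40 and -0.55. Vps35, a retromer subunit (adjusted p = 0.045), had 0.00, -1.07, -1.06 and 0.01. Over all sets Vps35 had -0.44, but 0.23 both under the offset and with covariates, called in each (adjusted p = 0.022 by edgeR). Cul1, a ubiquitin ligase scaffold (adjusted p = 0.023), had -0.17, -1.12, -1.09 and -0.11, and Ctnna2, an α-catenin (adjusted p = 0.026), had -0.31, -0.89, -0.95 and -0.17. In each of these genes the values of sets 2 and 3 were farther from 0 than those of sets 1 and 4. Sets 2 and 3 also held the verapamil libraries with r with GC content of 0.473 to 0.624, and the part of that trend in these differences was not tested.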

How the results depend on the processing

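Wnt4 kept its direction and call under all 44 alternatives run. Ctnnb1, Myc and Fzd6 lost the call within set 4 and kept it in the other 43, and Wnt5a lost it within sets 3 and 4. The calls of Lrp5, Tcf7l2, Lrp6 and Fzd3 were lost with the direction kept in 10, 7, 4 and 3 alternatives. The 3 higher genes were called under every alternative but the fit within set 4, which called 1. The 6 lower genes numbered 3 within set 3, 0 within set 4, 2 with GC and length trends as an offset and 3 with the slopes as covariates, and 5 to 6 when any single library was left out, with 3 to 3 higher. Without verapamil replicate 1, Lrp5 lost its call. Genes higher over the whole table numbered 3836, with 1680, 2445 and 39 within sets 1, 3 and 4 and 3630 to 3942 with a library left out. Genes lower numbered 3890, with 2124 in counts summed per set, 2518 without set 2, 1721 and 11 within sets 1 and 4, 1731 with covariates and 3707 to 4023 with a library left out. Of the pathway genes, 25 were higher, against 11, 11 and 0 within sets 1, 3 and 4, 43 under the offset and 24 to 27 with a library left out. The 50 lower pathway genes became 31 and 0 within sets 1 and 4, 33 under the offset, 21 with covariates and 48 to 52 with a library left out. The interaction of set and treatment, which called 1 of the 10 genes, called 2 without the 4 columns of uncertain name, an alternative chosen after seeing the data for the main comparison. The sign changed for Lrp5 within set 2 (0.02) and for Lrp6 under the offset (0.00) and with covariates (0.11). Axin2, which was not called in any fit, had -0.02 with total counts as the scale, 0.00 with set as a term, -0.01 without set 1, -0.09 without set 3, -0.03 within set 2, -0.34 within set 4, -0.06 under the offset and -0.03 to 0.06 with a library left out. The cause of these changes was not tested. Fits within sets also held fewer libraries, and the part of that smaller number was not tested either.

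Replicate numbers 1 to 10 did not pair the libraries: r between the deviations of same-numbered libraries was -0.0495 to 0.127, above 0.1 in 2 of 10 pairs. With the replicate number as a block, Lrp5 was no longer called (-0.10, adjusted p = 0.12 by edgeR), as in the same 20 libraries without a block (adjusted p = 0.075). Depth limited Wnt5a, Tcf7l2 and Fzd6 most, with at least 12, 45 and 35 reads per library.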
